A study of Mus musculus with 2 samples.

Results

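Of 4441 cells recovered from 6 mouse heart allografts, 204 carried the deposited annotation "Mo-DCs", for monocyte-derived dendritic cells, and these 204 cells are described here as they were annotated. They were 1 of 14 annotated types. The grafts were Bm12 donor hearts (a C57BL/6 strain with an altered class II gene, *H2-Ab1*) placed heterotopically into C57BL/6 recipients and taken at postoperative day 14 (POD14). In 3 hearts the donor was Bm12 with intact *Il33* (labelled WT, here IL-33+ hearts 1, 2 and 3), and in 3 it was Bm12 lacking *Il33* (labelled IL33 KO, here IL-33- hearts 4, 5 and 6). All recipients kept their own *Il33*, so the deletion was limited to the transplanted heart, and all hearts shared the class II mismatch. Each heart was digested, its immune cells were collected from the interphase of a Lympholyte-M density gradient, and a hashtag antibody of its own was put on each heart's cells before pooling into 1 droplet run with 3' counting of unique molecular identifiers (UMIs). The comparison asks how local IL-33, an alarmin released by injured stromal cells, changes the cells that infiltrate a graft under chronic rejection.

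Monocyte-derived dendritic cells arise in inflamed tissue from blood monocytes that enter it and take on class II antigen presentation. They are usually recognised by CD11c (*Itgax*), class II, the Fc receptor CD64 (*Fcgr1*) and the lectins CD209a, MGL2 and CLEC10A, next to monocyte genes such as *Csf1r*. In transplanted hearts they are known as cells that present donor antigen to T cells, and they differ from conventional dendritic cells (cDCs), which depend on FLT3.

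The number of annotated Mo-DCs per heart was uneven. IL-33+ heart 1 gave 37 of 866 cells, heart 2 gave 4 of 230 and heart 3 gave 111 of 1666. IL-33- heart 4 gave 28 of 836 cells, heart 5 gave 7 of 284 and heart 6 gave 17 of 559. Heart 3 thus weighs most in any value taken over all 204 cells, and hearts 2 and 5 rest on very few cells. Summed over its Mo-DCs, a heart had between 9955 and 265487 UMIs. The median Mo-DC had 2310 UMIs and 1126 genes, against 6709 UMIs in monocytes, 6606 in macrophages and 6544 in cDCs. No cell barcode occurred more than once.

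As a check of the genotype, *Il33* was counted in all cells. It gave 14, 2 and 133 UMIs in IL-33+ hearts 1 to 3 and 17, 4 and 7 UMIs in hearts 4 to 6. In annotated fibroblasts, where most of the *Il33* UMIs of heart 3 lay, the mean was 24.3, 0 and 50.7 CPM (UMIs of a gene scaled to a fixed total per cell) in hearts 1 to 3 and 32.6, 73.8 and 16.1 CPM in hearts 4 to 6. The transcript did not separate the groups. A 3' tag may lie outside the deleted stretch, and the cause of these counts was not tested. The count does not settle the genotype, and each direction below is between hearts as labelled. In Mo-DCs there was 1 *Il33* UMI in all, in heart 4.

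The annotated cells did not carry the markers of their label at a level above all of the neighbouring types. All levels that follow are mean CPM over cells, and since the annotation was made from the expression of the same cells they are a description with no test. *Cd209a* was at 11.4 CPM, with a UMI in 3 of the 204 cells, against 483 CPM in cDCs, 152 in macrophages and 30.9 in monocytes. *Mgl2* was at 50.4 CPM in Mo-DCs and 215 CPM in macrophages, and *Clec10a* at 45.1 CPM in Mo-DCs and 195 CPM in cDCs. *H2-Aa*, the alpha chain of I-A, was at 2261 CPM in Mo-DCs, 5992 in macrophages and 6566 in cDCs. *Itgax* was at 110 CPM against 140 in macrophages, 99.0 in cDCs and 19.5 in monocytes. *Csf1r*, the receptor for the macrophage growth factor, was at 118 CPM, below the 397 CPM of monocytes and the 301 of macrophages. *Flt3* was at 18.4 CPM, far below the 256 CPM of cDCs. Of the 10 genes listed as markers of monocyte-derived dendritic cells, an annotated cell had a UMI for 3.22 on average. The lower depth of these cells moves with that number, and its part in it was not tested.

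**Figure D1:**
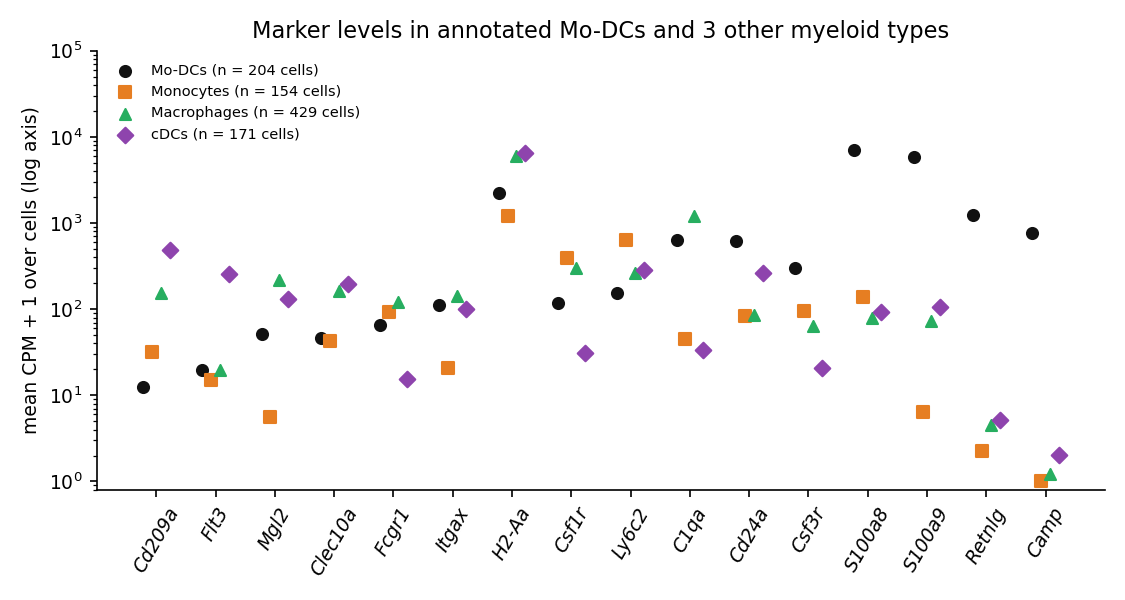
Mean CPM + 1 over cells (log axis) of 16 marker genes in annotated Mo-DCs (black circles), monocytes (orange squares), macrophages (green triangles) and cDCs (purple diamonds). The dendritic markers on the left lie at or below the level of cDCs or macrophages, and *S100a8*, *S100a9*, *Retnlg* and *Camp* on the right lie far above the 3 other types.

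What set the annotated cells apart from the 13 other types were genes of neutrophils. Of 3277 genes at 50 CPM or more in Mo-DCs, 369 were highest there among all types and 70 were more than 2-fold above the next type. The ratio to the next type was led by *Camp* (764 CPM against 1.00 in cDCs), *Ngp* (836 CPM against 1.89 in T cells annotated Trm-like) and *Ltf* (535 CPM against 3.40 in T cells annotated Tn), which encode cathelicidin, neutrophilic granule protein and lactoferrin of the secondary granules. The CPM of these granule genes came mostly from IL-33- heart 4, at 5254 for *Camp*, 4729 for *Ngp* and 3311 for *Ltf*. The next highest value was 340 CPM, for *Ngp* in heart 3. *Retnlg* was at 1246 CPM against 18.4 in the next type. *S100a9* was at 5855 CPM against 104, and *S100a8*, its partner in calprotectin, at 7118 CPM against 138. *Lcn2*, *Mmp9* and *Cxcr2*, the receptor that draws neutrophils to CXC chemokines, followed. *Cd24a*, which the authors used among their myeloid markers, was at 618 CPM, also the highest of all types. *Tpsb2* and *Mcpt4*, proteases of mast cells, ranked among the same 20 genes, but all of their UMIs came from 1 cell each. Chemokine *Ccl3* was at 1649 CPM against 119 in NK cells, with a UMI in 65 Mo-DCs. By heart it ran from 43.5 CPM in heart 6 to 2733 CPM in heart 3. Hearts 2, 5 and 6 lay below the NK cell level.

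These genes were carried by a minority. The gradient used on these hearts is made to collect lymphocytes at the interphase, and granulocytes are usually left below it. *S100a8* had a UMI in 52 of the 204 cells, *Retnlg* in 30, *Ngp* in 8 and *Camp* in 7. Of 8 neutrophil markers (*S100a8*, *S100a9*, *Retnlg*, *Csf3r*, *Cxcr2*, *Mmp9*, *Mmp8*, *Lcn2*), 131 Mo-DCs had a UMI for none, 19 for 1, 7 for 2, 12 for 3 and 35 for 4 or more. Those 35 cells are 17.2% of the annotated Mo-DCs. In NK cells, which should lack these genes and had a median of 2712 UMIs, 1 of 931 cells (0.107%) had 4 or more, and no other type exceeded 1.30%. After every cell was thinned to 1500 UMIs, 22.5% of Mo-DCs had 3 or more of the markers, against 0.649% of monocytes and 0.466% of macrophages (23%, 5.19% and 1.40% without thinning). The 35 cells had a median of 1924 UMIs and 1.69% mitochondrial UMIs, whereas the other 169 had 2365 UMIs and 4.65%. *Ly86* and *Aif1*, genes of monocytes and macrophages, had no UMI in the 35 cells and one in 73 and 66 of the 169.

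Promoters are shown for 3 of the neutrophil genes among the 20 with the largest ratios. *Ngp* and *Ltf* mark the cells with the most neutrophil transcripts and *S100a9* is found more widely. All 3 hold the letters marked below, whereas *Camp*, which led the ratio, does not and is not shown. Each sequence is the RefSeq window of 250 bases before to 50 after the transcription start (GRCm38.p6), read in the direction of the gene, and capitals mark the letters TTGCNNAA or, on the other strand, TTNNGCAA, a short form of the site bound by C/EBP factors, which are known to direct granule genes in granulocyte development. *Ngp* lies on the + strand at chr9:110419558-110419857, *Ltf* on the + strand at chr9:111019042-111019341, and *S100a9* on the - strand at chr3:90695672-90695971.
Ngp: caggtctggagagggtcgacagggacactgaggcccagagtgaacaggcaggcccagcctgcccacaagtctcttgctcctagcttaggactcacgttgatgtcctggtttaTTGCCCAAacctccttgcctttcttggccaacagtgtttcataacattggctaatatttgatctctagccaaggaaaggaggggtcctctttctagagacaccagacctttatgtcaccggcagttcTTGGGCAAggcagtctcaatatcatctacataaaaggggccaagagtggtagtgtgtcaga
Ltf: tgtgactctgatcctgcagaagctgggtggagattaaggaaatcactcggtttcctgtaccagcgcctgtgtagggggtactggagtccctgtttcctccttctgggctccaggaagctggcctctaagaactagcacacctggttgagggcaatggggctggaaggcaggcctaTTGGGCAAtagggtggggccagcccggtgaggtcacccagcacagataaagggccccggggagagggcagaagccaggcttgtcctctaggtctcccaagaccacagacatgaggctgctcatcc
S100a9: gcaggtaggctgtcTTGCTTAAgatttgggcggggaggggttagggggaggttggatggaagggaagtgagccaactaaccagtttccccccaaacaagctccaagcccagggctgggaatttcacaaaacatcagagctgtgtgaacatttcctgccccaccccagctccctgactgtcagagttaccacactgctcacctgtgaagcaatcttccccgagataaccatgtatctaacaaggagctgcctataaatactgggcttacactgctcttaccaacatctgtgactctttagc
The letters start 138 and 11 bases before the start of *Ngp*, 75 before that of *Ltf* and 236 before that of *S100a9*. Of 9 neutrophil genes among the 20 with the largest ratios, 8 had a window and 5 of those held the letters, against 3547 of 32851 promoter windows (10.8%). A match is a description of these letters and no evidence of binding. The windows of *Camp*, *S100a8* and *Cxcr2* held none.

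When clustered on their own, the 204 cells fell into 8 clusters, which are named here by genes with a UMI in at least 25% of a cluster's cells. The levels that define a cluster were also what formed it, so they carry no test.

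The largest cluster (43 cells) was led by *G0s2*, *Osgin1*, *Hcar2*, *Csf3r* (the receptor for G-CSF) and *Il1r2*, the decoy receptor for IL-1. Its cells had a UMI for 4.19 of the 8 neutrophil markers on average, and 41 of the 43 had *S100a8*. *Cxcl2*, a chemokine that recruits neutrophils, reached 17821 CPM there, which was 62.7% of the *Cxcl2* CPM of all Mo-DCs. *Il1b* was at 3065 CPM in the same cells. Granule genes were nearly absent, at 0.0465 of 8 granule proteins per cell. They were instead concentrated in the smallest cluster (7 cells), led by *Ngp*, *Camp*, *Ltf* and *Lcn2*, where a cell had a UMI for 7.14 of the 8 neutrophil markers. *S100a8* averaged 128097 CPM in those 7 cells, and *Ly6g*, which defines mouse neutrophils, had a UMI in 6 of them and in no other Mo-DC. *Elane*, a primary granule protease of neutrophil precursors, had a UMI in 0 of 204 Mo-DCs. That allows up to 1.47% of cells with a UMI and sets no limit on cells that express the gene. *Cxcl2*, at 199 CPM, was low in the granule cluster. Of the 7 cells, 6 came from IL-33- heart 4 and 1 from IL-33+ heart 3.

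A cluster of 37 cells was led by *Ccl24*, *Retnla*, *Fn1* and *Arg1*, genes of alternatively activated macrophages and of matrix. It averaged 4.00 of 10 macrophage markers and 4.14 of the 10 markers of monocyte-derived dendritic cells per cell. *Retnla* was at 2808 CPM in it and 308 in the other Mo-DCs. Another cluster (20 cells) was led by *Apoe*, *Selenop* and *Ccl12*, with the complement gene *C1qb* at 1504 CPM against 225, and averaged 6.35 of 10 macrophage markers. *Pou2f2*, *Ace*, *Adgre4*, *Cd300e* and *Cx3cr1*, genes of the patrolling Ly6C-low monocyte, led a cluster of 15 cells with 6.13 of 10 markers of that monocyte.

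The cluster with the most markers of conventional dendritic cells still had only 1.2 of 10 per cell. In this cluster of 35 cells, led by *Hbb-bs*, *Tcf4* and *Epsti1*, *Ccr7* had a UMI in 5 cells and *Ccl22* in 7, which held 73.5% and 92.0% of the CPM of those genes of migrating dendritic cells over all Mo-DCs. The median mitochondrial share of that cluster was 10.4%, the highest of the 8, and *Hbb-bs*, a red blood cell gene, was at 22306 CPM in it with a UMI in 11 cells. A cluster of 33 cells was led by *Gm21860*, *G530011O06Rik* and the interferon-induced *Cxcl10*, with *Oasl1* and *Irf7* among its leading genes. It averaged 4.48 of 10 markers of monocyte-derived dendritic cells per cell, the most of the 8 clusters, and had a median mitochondrial share of 9.11%. Of its cells, 31 came from heart 3.

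The last cluster was 14 cells, all from IL-33+ heart 3. It was led by *Cyp11a1*, a steroid-synthesis enzyme, *Il6* and *Gata2*, a transcription factor of mast cells and basophils, and *Cd200r3* and *Csf2rb2* were among its leading genes. *Il6* averaged 11025 CPM in it and 75.6 in the other Mo-DCs. *Mcpt8*, a basophil protease, had a UMI in 8 of the 14 cells and in no other Mo-DC, and *Il4* and *Il13* each had one in 2. The cluster averaged 2.5 of 6 mast cell and basophil markers per cell. Of those markers, *Cpa3* had a UMI in no Mo-DC of heart 3, *Fcer1a* in 3 and *Ms4a2* in 2. *Il1rl1*, which encodes the IL-33 receptor ST2, was at 615 CPM with a UMI in 9 of the 14 cells. These cells held 67.2% of all *Il1rl1* CPM among Mo-DCs. *Ccl3* and *Ccl4*, a pair of CC chemokines, were at 10496 and 14541 CPM. By heart, *Il1rl1* in Mo-DCs was at 0, 0 and 90.9 CPM in hearts 1 to 3 and at 14.9, 0 and 136 CPM in hearts 4 to 6, where the last value rests on 1 cell with 13 UMIs. The groups overlapped, and outside heart 3 the receptor was counted in 2 Mo-DCs only.

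**Figure D2:**
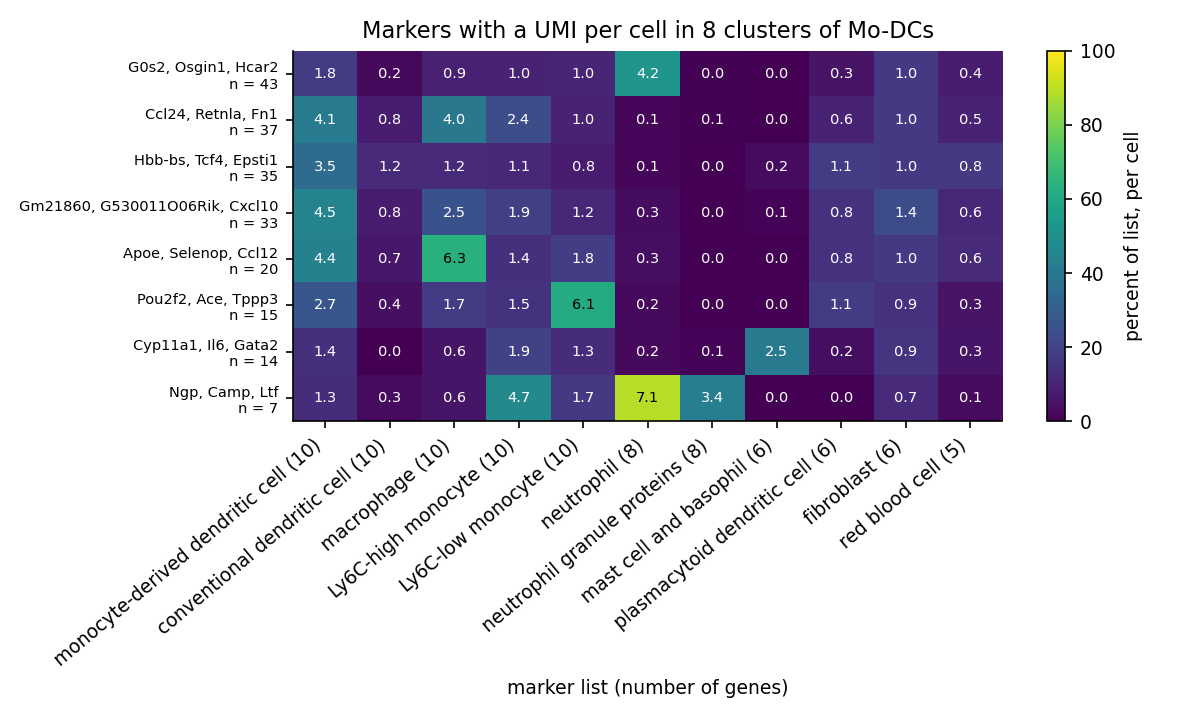
Mean number of markers with a UMI per cell (printed number) in each of 8 clusters of annotated Mo-DCs (rows, named by their 3 leading genes, with n cells) for 11 marker lists (columns, with the number of genes). Color gives the same value as a percent of the list, and the bottom row holds 7.14 of 8 neutrophil markers while no row holds more than 4.5 of the 10 markers of monocyte-derived dendritic cells.

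The mix of clusters differed from heart to heart within a group. In heart 1, 16 of 37 cells were in the *Ccl24*, *Retnla* and *Fn1* cluster, and in heart 3 only 5 of 111 were. Heart 6, from the other group, had 7 of 17 there, and heart 5 had 4 of 7. The *G0s2* and *Osgin1* cluster took 28 of 111 cells in heart 3 and 7 of 28 in heart 4, against 4 of 37 in heart 1 and 1 of 17 in heart 6. Cluster sizes were not tested between groups.

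**Figure D3:**
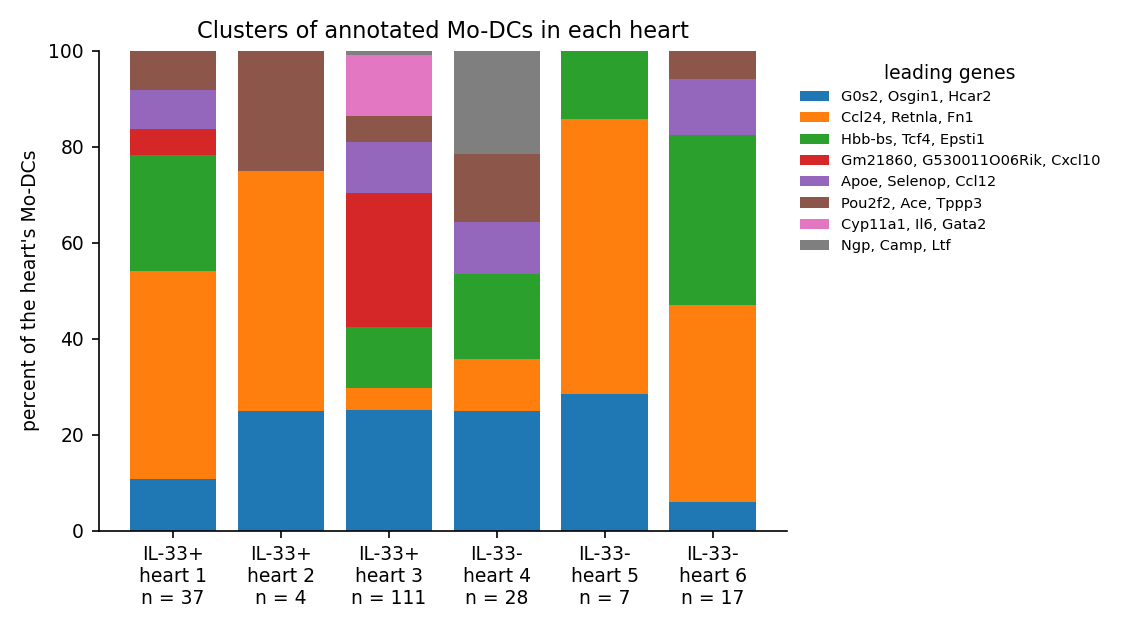
Percent of each heart's annotated Mo-DCs (n under each bar) in the 8 clusters, named by their 3 leading genes. The *Cyp11a1*, *Il6* and *Gata2* cluster is seen in heart 3 alone and the *Ngp*, *Camp* and *Ltf* cluster in hearts 3 and 4.

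Annotated Mo-DCs were 4.27%, 1.74% and 6.66% of the cells of IL-33+ hearts 1, 2 and 3, and 3.35%, 2.46% and 3.04% of the cells of IL-33- hearts 4, 5 and 6. The IL-33- hearts all lay within the range of the IL-33+ hearts. The mean was 4.22% ± 2.46 (SD, n = 3 hearts) against 2.95% ± 0.449 (n = 3), a difference of 1.27 percentage points (two-sided exact permutation test, p = 0.5, where 0.1 is the smallest possible). Without heart 2 the difference was 2.52 points, and without heart 3 it was 0.0541. As a share of the annotated myeloid cells they were 10.6%, 16.0% and 41.4% against 15.6%, 15.9% and 18.5%, again overlapping. A share cannot tell more Mo-DCs from fewer cells of the other types.

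Cells with at least 4 of the 8 neutrophil markers were 2 of 37, 1 of 4 and 20 of 111 Mo-DCs in IL-33+ hearts 1 to 3, and 10 of 28, 1 of 7 and 1 of 17 in IL-33- hearts 4 to 6. As shares these were 5.41%, 25% and 18.0% against 35.7%, 14.3% and 5.88%. Hearts 1 and 6 were the lowest and heart 4 the highest, so that the groups overlapped. The group means were 16.1% ± 9.93 and 18.6% ± 15.4 (SD, n = 3 each), a difference of -2.49 points (exact permutation test, p = 0.9). The sign of that difference turned without heart 1 (2.88) and without heart 4 (6.06). With at least 5 of the 8 markers required, the means were 5.41% and 16.2%, a difference of -10.8 points (exact permutation test, p = 0.2).

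**Figure D4:**
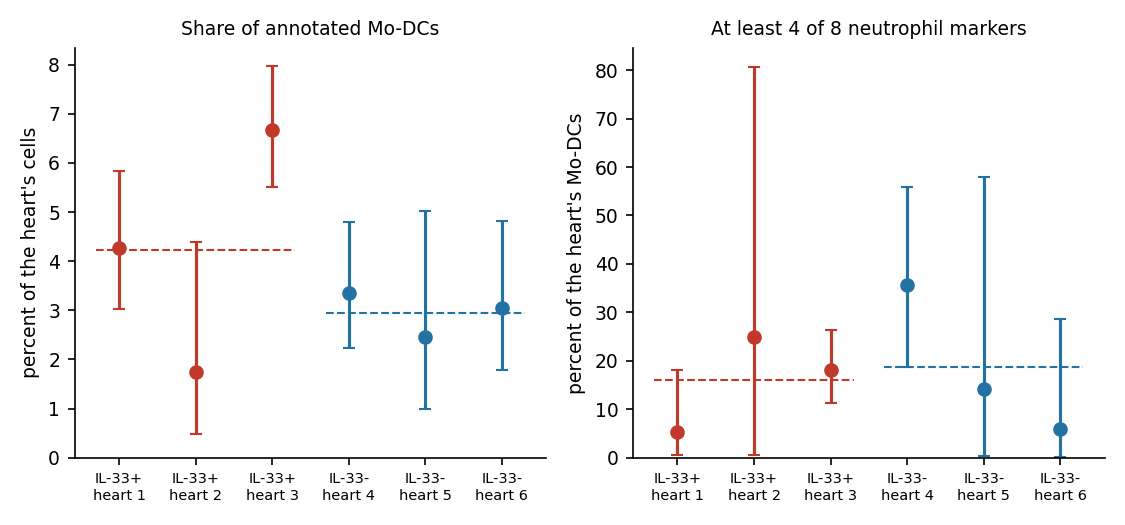
Left, percent of each heart's cells annotated Mo-DCs; right, percent of each heart's Mo-DCs with at least 4 of 8 neutrophil markers. Points are single hearts (IL-33+ red, IL-33- blue) with exact 95% binomial intervals that cover counting error only, dashed lines are group means, and the 2 groups overlap in both panels.

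Gene levels were then compared between the 3 IL-33+ and the 3 IL-33- hearts, with the mean CPM over a heart's Mo-DCs as 1 value per heart. The genes that passed the threshold encode chemokines or phagocyte proteins, with *Ccl8* higher in IL-33+ hearts and *Chil3*, *Ccl2* and *S100a8* lower. They were 4 (0.0702%) of 5698 genes tested by limma, called when the p adjusted by Benjamini-Hochberg was at most 0.05, with 1 higher (0.0176%) and 3 lower (0.0527%). At an unadjusted p of 0.05 or less there were 98 higher (1.72%) and 101 lower (1.77%). None of the 4 was called with limma-voom or among hearts with at least 10 Mo-DCs, and with robust eBayes only *Chil3* was. Fold changes below are IL-33+ over IL-33- on the log2(CPM + 10) scale, with the standard error from limma. In this fit limma estimated an infinite prior df, so the standard error comes entirely from the trend across genes and not from the spread of a gene's own hearts. From their own 6 hearts the standard errors were 1.17 for *Chil3*, 2.15 for *S100a8*, 1.75 for *Ccl2* and 2.13 for *Ccl8*, which is 1.63, 5.09, 3.01 and 3.38 times those printed below. A mean over cells cannot tell fewer cells with a transcript from less of it per cell.

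*Chil3* encodes the chitinase-like protein Ym1, made by alternatively activated macrophages, Ly6C-high monocytes and neutrophil precursors (chr3:106147554-106167564, - strand, GRCm38). It was at 142, 0 and 38.2 CPM in Mo-DCs of IL-33+ hearts 1 to 3 and at 858, 440 and 528 CPM in those of IL-33- hearts 4 to 6. The groups did not overlap. The difference was -3.83 ± 0.72 on the log2 scale (limma, Benjamini-Hochberg adjusted p = 0.000308; exact permutation p = 0.1). Few cells carried it, however: 4 of 37, 0 of 4 and 7 of 111 against 4 of 28, 2 of 7 and 3 of 17. In heart 6, 92.8% of the CPM came from a single cell, and in heart 5, 84.9% did. The granule cluster held 56.7% of all *Chil3* CPM and the *Ccl24*, *Retnla* and *Fn1* cluster 30.5%. Without the 35 cells with 4 or more neutrophil markers, *Chil3* was at 0 CPM in heart 4 and 77.4 in heart 5, and its difference was -1.15 (limma, adjusted p = 1.00). The call was also lost without heart 4 (-3.55, limma adjusted p = 0.0762).

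*S100a8* encodes a calcium-binding subunit of calprotectin (chr3:90668978-90670035, + strand). It was at 329, 3606 and 3162 CPM in IL-33+ hearts and at 35293, 11168 and 482 CPM in IL-33- hearts. Hearts 4 and 5 were above all others, but heart 6 lay below hearts 2 and 3, so the groups overlapped. *S100a8* had a UMI in 4 of 37, 1 of 4 and 30 of 111 Mo-DCs against 13 of 28, 2 of 7 and 2 of 17. The value of heart 2 came from 1 cell. In heart 5, 90.5% of the CPM came from 1 cell, and in heart 6, 96.3% did. The log2 difference was -1.88 ± 0.42 (limma, adjusted p = 0.0122; exact permutation p = 0.4). The *Ngp*, *Camp* and *Ltf* cluster held 61.7% of the *S100a8* CPM and the *G0s2* and *Osgin1* cluster 38.2%. *S100a8* is itself 1 of the 8 neutrophil markers. The 8 neutrophil markers summed to between 1651 and 8623 CPM in IL-33+ hearts and between 1478 and 73580 in IL-33- hearts. By limma 5 of the 8 had an unadjusted p of 0.05 or less, all lower in IL-33+ (*S100a8*, *Lcn2*, *Mmp8*, *S100a9* and *Retnlg*). Of these 1 was called, and 1.77% of all genes tested were lower at that p. The hearts overlapped for all 8 markers, and each of the 5 was highest in heart 4. Their transcripts lay mostly in the same 35 cells with 4 or more markers, so they are not 5 separate results. From their own hearts the standard errors were 2.89 for *Lcn2*, 2.17 for *Mmp8*, 1.85 for *S100a9* and 1.45 for *Retnlg*. That is 3.08, 1.82, 4.36 and 3.09 times those of limma. Without heart 4 the log2 difference of *Retnlg* turned to 0.16 and that of *S100a9* to 0.47, and without the 35 cells with 4 or more neutrophil markers that of *Retnlg* was 1.14. Without the 35 cells the *S100a8* difference was -2.39 and no longer called (limma, adjusted p = 0.206). It was not called either without heart 1, 2, 4 or 5, with log2 differences of -0.77, -2.48, -0.58 and -1.41, nor with a pseudocount of 1 CPM (-1.89) or median-of-ratios size factors (-2.13). In all it was called in 7 of the 17 alternatives in which it was tested.

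*Ccl2* encodes the ligand of CCR2 that brings monocytes into inflamed tissue (chr11:82035571-82037453, + strand). It was at 304, 0 and 416 CPM in IL-33+ hearts and at 769, 597 and 1041 CPM in IL-33- hearts, with no overlap. The log2 difference was -2.85 ± 0.58 (limma, adjusted p = 0.00196; exact permutation p = 0.1). The 0 of heart 2 is that of 4 cells, and without that heart the difference was -1.11 (limma, adjusted p = 1.00). Without heart 6 it was -2.64 (limma, adjusted p = 0.0505). *Ccl2* was found in 12 of 37, 0 of 4 and 43 of 111 Mo-DCs against 9 of 28, 2 of 7 and 9 of 17. A single cell gave 50.2%, 88.9% and 38.3% of the CPM of hearts 4 to 6. In hearts 1 and 3 the top cell gave 16.4% and 13.4%. The cluster led by *Apoe* and *Selenop* had the highest mean, 1850 CPM in 16 of 20 cells. Leaving out the neutrophil-marker cells kept the call, with a difference of -3.01 (limma, adjusted p = 0.000271).

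*Ccl8* encodes a CC chemokine of resident and alternatively activated macrophages (chr11:82115185-82116799, + strand) and was the called gene that was higher with IL-33+ labels. It was at 888, 1442 and 283 CPM in IL-33+ hearts and at 23.1, 0 and 1062 CPM in IL-33- hearts. Heart 6 was second only to heart 2, and the groups overlapped. The log2 difference was 3.36 ± 0.63 (limma, adjusted p = 0.000308; exact permutation p = 0.3). The value of heart 2 came from 1 cell, that of heart 4 from 1 UMI, and 78.1% of the CPM of heart 6 from 1 cell. Nearly all of the transcript lay in the *Ccl24*, *Retnla* and *Fn1* cluster (64.2%) and the *Apoe* and *Selenop* cluster (30.6%). The call was lost without heart 2 (2.86, limma adjusted p = 1.00) and without heart 5 (1.95, limma adjusted p = 0.283), and it was kept without the neutrophil-marker cells (4.16, limma adjusted p = 5.51e-06).

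**Figure D5:**
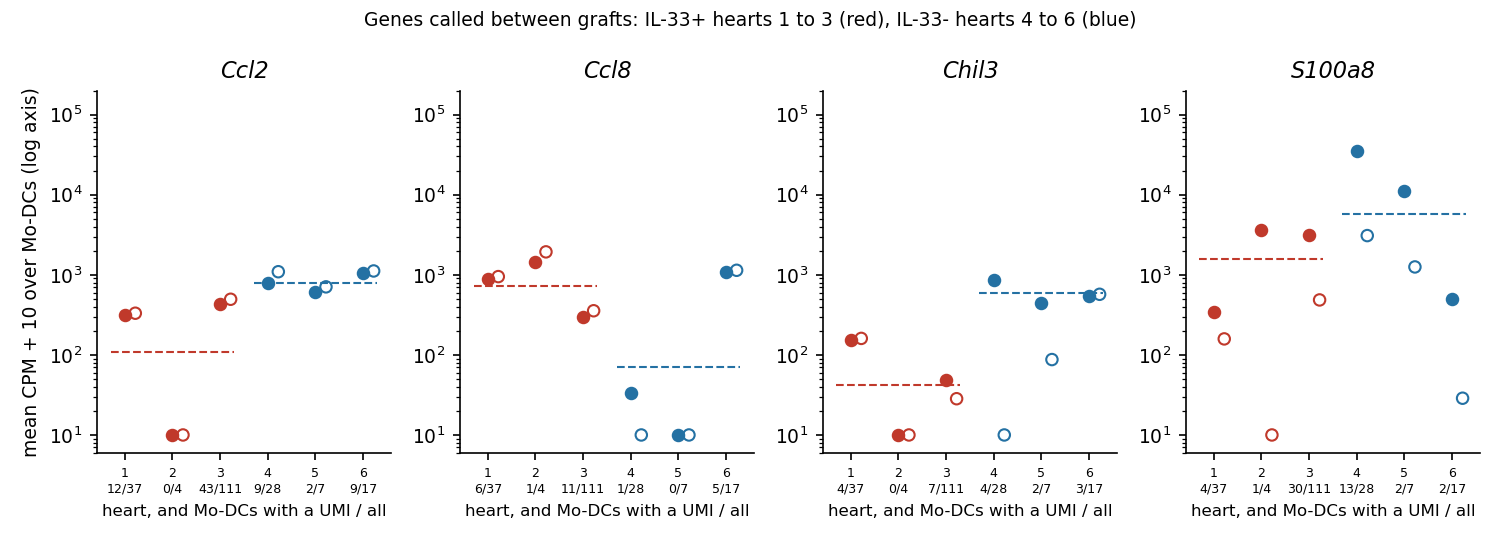
Mean CPM + 10 over annotated Mo-DCs (log axis) per heart for the 4 called genes, IL-33+ hearts in red and IL-33- hearts in blue, with Mo-DCs carrying a UMI out of all Mo-DCs under each heart. Filled points use all Mo-DCs, open points leave out cells with 4 or more neutrophil markers, and dashed lines are group means on the log scale of the filled points; *Ccl2* and *Chil3* do not overlap with all cells, and *Chil3* overlaps in the open points.

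Chemokines as a group did not move one way. Of 12 CC chemokines 11 were tested, with 1 called higher and 1 called lower, a median log2 difference of 0.11 and 6 above 0 (the median over all genes tested was -0.01). *Ccl3* was at 512, 94.0 and 2733 CPM in IL-33+ hearts and 445, 62.7 and 43.5 CPM in IL-33- hearts (2.13 ± 0.61, limma adjusted p = 0.230). It was called without heart 2 (3.31) and without heart 4 (3.09), and with hearts weighted by their Mo-DCs (3.25). *Ccl4* was at 667, 282 and 3306 against 1679, 125 and 359 CPM (0.99 ± 0.49, limma adjusted p = 1.00). Both were highest in heart 3, where the 14 *Cyp11a1* and *Il6* cells held 43.7% and 45.6% of their CPM among all Mo-DCs. Standard errors from their own hearts were 1.67 for *Ccl3* and 1.48 for *Ccl4*, which is 2.74 and 3.01 times those of limma. Of 9 CXC chemokines 6 were tested and none was called. Of the 12 chemokine receptors 11 were tested and none was called, with *Ccr1* lower in IL-33+ hearts at an unadjusted p of 0.05 or less.

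*Il1b*, the inflammatory cytokine cleaved by caspase-1, was at 649, 1972 and 2108 CPM in IL-33+ hearts and at 575, 413 and 347 CPM in IL-33- hearts. It had a UMI in 11, 1 and 63 Mo-DCs of IL-33+ hearts and in 9, 2 and 2 of IL-33- hearts. The *G0s2* and *Osgin1* cluster held 45.3% of its CPM among all Mo-DCs. The *Cyp11a1* and *Il6* cluster, seen in heart 3 alone, held 30.7%. The groups did not overlap, as for 225 genes that were higher (3.95%) and 203 that were lower (3.56%) of those tested. The log2 difference of 1.66 ± 0.47 was not called (limma, adjusted p = 0.230). It was called without the neutrophil-marker cells, at 2.73 (limma, adjusted p = 0.000271), without heart 1, at 2.20 (limma, adjusted p = 0.0415), and with hearts weighted by their Mo-DCs, at 1.74 (limma, adjusted p = 0.00385). Its natural antagonist *Il1rn* was at 1371, 1813 and 899 CPM against 716, 854 and 496 CPM, also without overlap (0.95 ± 0.46, limma adjusted p = 1.00). Of the 15 genes of the IL-1 family and inflammasome, 11 were tested, none was called, and the median difference was 0.46 with 9 above 0.

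Among 14 genes of TNF and NF-kB feedback, all tested, none was called, 10 were above 0 and the median was 0.45. *Ptgs2*, the inducible cyclooxygenase, was at 572, 1005 and 615 CPM in IL-33+ hearts and 59.6, 195 and 298 CPM in IL-33- hearts, with no overlap (2.13 ± 0.56, limma adjusted p = 0.113). It was called without heart 6 (2.59), without the neutrophil-marker cells (2.55), with summed UMIs (2.28) and with hearts weighted by their Mo-DCs (2.25). Of 16 immediate early genes, all tested, none was called and the median was 0.34. *Nr4a1*, an orphan nuclear receptor induced early after stimulation, was at 330, 1281 and 743 against 318, 44.2 and 301 CPM (1.97 ± 0.56, limma adjusted p = 0.230), and was called without heart 4 (2.41) and without heart 6 (2.37). *Fos* and *Ier3* were also higher at an unadjusted p of 0.05 or less, but *Ier3* turned to -0.28 without the neutrophil-marker cells. Standard errors from their own hearts were 0.69 for *Ptgs2* and 1.02 for *Nr4a1*, which is 1.23 and 1.83 times those of limma.

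Genes of antigen presentation showed no call. All 8 class II presentation genes were tested, with a median of -0.24, and *H2-Aa* was at 2832, 2174 and 1766 CPM against 1588, 2061 and 5456 CPM (-0.24 ± 0.43, limma adjusted p = 1.00). All 9 class I presentation genes were tested, with a median of -0.11. Of 18 interferon-stimulated genes 13 were tested, 9 were below 0 and the median was -0.46, the lowest of the 26 functional lists, with *Irgm1* lower at an unadjusted p of 0.05 or less. All 10 costimulation and checkpoint genes were tested without a call (median 0.36).

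Among repair genes, *Chil3* was the one called of 12 alternative activation genes, 9 of which were tested (median 0.08). *Fn1*, the matrix protein fibronectin, was at 871, 0 and 172 CPM in IL-33+ hearts and 124, 1025 and 1765 CPM in IL-33- hearts, overlapping (-2.42 ± 0.60, limma adjusted p = 0.0576). It was called without heart 1, 3 or 4, at -3.88, -2.74 and -3.53, and without the neutrophil-marker cells at -2.58 (limma, adjusted p = 0.0130), whereas without heart 2 it was -0.65 (limma, adjusted p = 1.00). The standard error of *Fn1* from its own hearts was 2.21, which is 3.69 times that of limma. *Spp1* (osteopontin) was at 500, 1692 and 1378 CPM against 335, 879 and 436 CPM (1.05 ± 0.47, limma adjusted p = 1.00). In the list of growth factors and matrix, which holds both, 14 of 14 were tested, none was called, and 10 were below 0. In all, 24 of the 26 functional lists held no called gene, and list medians ran from -0.46 to 0.88.

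Among genes whose hearts did not overlap, the largest differences past an unadjusted p of 0.05 belonged to *Plk2*, *Cdh1*, *Bnip3*, *Bod1l*, *Mapk9*, *F13a1*, *Ndufb6*, *Pgm1*, *Prkd3* and *Uhrf2* on the higher side. On the lower side, next to *Chil3* and *Ccl2*, they were *Aar2*, *Adh5*, *Ehd4*, *Top1*, *Notch1*, *Zmym5*, *Ap3s1* and *Ccpg1*. None of these 18 passed the adjusted threshold. Every gene named on the higher side was at 0 CPM in heart 5, which had 7 Mo-DCs. Every gene on the lower side, *Chil3* and *Ccl2* included, was at 0 CPM in heart 2, which had 4. *Cdh1*, *Mapk9* and *Pgm1* were at 0 CPM in every IL-33- heart. They could pass the filter of a UMI in at least 3 hearts only through the IL-33+ hearts, so non-overlap was certain. In heart 2 each had a UMI in 1 of 4 cells. *Uhrf2*, a ubiquitin ligase, was at 187, 208 and 168 CPM in IL-33+ hearts and 49.8, 0 and 27.5 CPM in IL-33- hearts (limma, adjusted p = 1.00). *Notch1* was at 260, 0 and 218 against 336, 783 and 303 CPM (limma, adjusted p = 0.230), and *Top1*, a DNA topoisomerase, at 347, 0 and 349 against 363, 720 and 647 CPM (limma, adjusted p = 0.106). Without the 4 cells of heart 2 the log2 difference of *Notch1* went from -2.37 to -0.83 and that of *Top1* also from -2.37 to -0.65. Both passed the adjusted threshold without heart 1 (-3.21 and -3.23) and without heart 3 (-3.08 and -3.24), and *Top1* also without heart 4 (-2.67). Standard errors from their own hearts were 1.60 for *Notch1* and 1.75 for *Top1*, which is 2.41 and 2.84 times those of limma. *Cdh1* (E-cadherin) was seen in 14 cells, of which 11 were of the *Cyp11a1* and *Il6* cluster.

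Whether the graft difference in Mo-DCs departed from that in neighbouring types of the same hearts was tested on the within-heart difference. Against monocytes, limma called 0 of 7431 genes (0%), with 305 (4.1%) at an unadjusted p of 0.05 or less. Against macrophages it called 0 of 9716 (0%), with 364 (3.75%) at an unadjusted p of 0.05 or less. *Chil3* was at 202, 993 and 363 CPM in monocytes of IL-33+ hearts and 170, 213 and 376 CPM in those of IL-33- hearts, and its difference in Mo-DCs departed from that in monocytes by -4.61 ± 1.37 on the log2 scale (limma, unadjusted p = 0.00614, adjusted p = 0.95). Against macrophages the value for *Chil3* was -4.59 ± 0.90 (limma, unadjusted p = 0.00048, adjusted p = 0.990). *Ccl2* in monocytes was at 68.3, 0 and 68.3 against 272, 370 and 45.6 CPM. *Ccl2* in macrophages was at 238, 752 and 1290 against 535, 201 and 352 CPM, and its difference in Mo-DCs lay -3.70 ± 1.40 from that in macrophages (limma, unadjusted p = 0.0253, adjusted p = 0.990). For *Ccl8* and *S100a8* the unadjusted p by limma was 0.242 and 0.460 against monocytes and 0.379 and 0.999 against macrophages. The genes followed here were chosen because they were called on the same Mo-DC values. Their unadjusted p values are not independent of that choice.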

How the data were processed

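Cells of 6 hearts were measured in 1 pool by 3' single-cell RNA sequencing. The authors aligned reads to mm10 with Cell Ranger, removed likely doublets and dead cells by UMI, gene and mitochondrial limits, and deposited log2(CPM + 1) values with a type and hashtag for every cell. UMIs were recovered from the steps between values (99.9% of low values whole within 0.05). Cell types are the deposited ones. The mean CPM over a heart's Mo-DCs plus 10 was compared on the log2 scale with limma 3.58.1 (R 4.3.3; eBayes with trend), for genes with at least 10 UMIs and a UMI in at least 3 hearts. Shares were compared by two-sided exact permutation over 20 divisions of 6 hearts. Hearts are the replicates, 3 per group. Clusters used scanpy 1.11.5 (1500 variable genes, 12 components, resolution 0.8). No further doublets were removed; Scrublet at its automatic threshold found 2, and an alternative left out the 6% of cells with the highest scores. Fits were tested on simulated data with the same spread between hearts for every gene. Such data could not show how the fit does where a gene's own hearts spread more than the trend, as for the called genes. Cell clusters confined to single hearts were not simulated. Named genes were markers, called genes, the 10 largest non-overlapping differences each way at an unadjusted p of 0.05 or less, the 20 highest type ratios, genes apart by neutrophil markers, and up to 4 per list. Genes defining clusters were chosen after their values were seen. The members and lists were chosen with earlier results of these data known. Alternatives changed hearts, scaling, pseudocount, filter, weights and cells. Intervals cover counting error only.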

Additional observations from a re-analysis of the deposited data

How the results depend on the processing

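A heart had between 4 and 111 Mo-DCs. Of 807 values of 47 named genes under the alternatives, 730 kept direction and side of the threshold, 27 lost and 37 gained the call, and 13 turned. The 4 genes called became 7, 2, 8, 9, 2 and 14 without hearts 1 to 6 in turn, 0 with limma-voom (145 at an unadjusted p of 0.05 or less), 0 with hearts of at least 10 Mo-DCs (179), 0 with at least 30 UMIs and a UMI in every heart (44), 1 with robust eBayes (*Chil3*), 21 with hearts weighted by their Mo-DCs, and 3 to 6 in the others. The alternatives on mast cell and basophil markers and on the replicate block were chosen after seeing the data. Without Mo-DCs with a mast cell or basophil marker 5 genes were called, and without those with any neutrophil, mast cell or basophil marker 3 were (*Ccl2*, *Ccl8* and *Fn1*).

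The difference in the share of annotated Mo-DCs ran from 0.0541 to 2.52 points, and that in the share with neutrophil markers from -8.86 to 6.06, when 1 heart was left out. The count of genes that differed from monocytes or macrophages was 0 in each alternative, by limma, with 202 to 470 at an unadjusted p of 0.05 or less. Log2 differences that turned were *Hbb-bs* -0.20 without heart 3 and -0.48 without heart 5 (up to 3.39 without heart 4); *Retnlg* 0.16 and *S100a9* 0.47 without heart 4 (down to -2.26 and -2.37 without heart 6); *Retnlg* 1.14 and *Ier3* -0.28 without cells with 4 or more neutrophil markers; *Ier3* -0.92 and *Ccpg1* 0.0076 without cells with any neutrophil, mast cell or basophil marker; *Selplg* -0.25 with hearts of at least 10 Mo-DCs; and *Vegfa* 0.31 without heart 2 (-3.03 without heart 3), 0.52 with limma-voom, 1.09 with weights and 0.62 with hearts of at least 10 Mo-DCs. The cause was not tested. The labels number the hearts 1 to 6, and the study's supplement numbers them 1 to 3 within each group. Hearts with the same number within their group did not deviate together (correlations over 5698 genes of -0.0502, 0.0191 and -0.0235), and only heart 2 correlated best with its own number. With that number as a replicate block, limma called 0 genes (94 at an unadjusted p of 0.05 or less). The 4 called genes kept their log2 differences (*Ccl2* -2.85, *Ccl8* 3.36, *Chil3* -3.83, *S100a8* -1.88), each with an adjusted p of 0.960 by limma.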

Other observations

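Hemoglobin transcripts varied widely between hearts of both groups in the annotated Mo-DCs. The 5 red blood cell genes summed to 3183, 94.0 and 9269 CPM in IL-33+ hearts 1 to 3 and to 25341, 167 and 103 CPM in IL-33- hearts 4 to 6. Of 4 genes tested, 3 were above 0 (median log2 difference 0.88) and none was called. On the log2 scale *Hba-a2* (1.64) and *Hbb-bs* (0.98) were above 0 at an unadjusted p of 0.05 or less by limma. Both were nonetheless highest in IL-33- heart 4, where *Hba-a2* was at 5370 CPM. Standard errors from their own hearts were 3.83 and 2.90, which is 5.13 and 5.85 times those of limma. *Hbb-bs* was at 11729 CPM in heart 4 and 4256 CPM in heart 3, and was called without heart 4 (3.39) but turned to -0.20 without heart 3 and -0.48 without heart 5. It had a mean of 94.6 CPM in the 35 cells with 4 or more neutrophil markers and 5006 CPM in the other 169.

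*Osm*, oncostatin M, was at 497 CPM in annotated Mo-DCs, the highest of the 14 types, against 379 CPM in monocytes. It had a UMI in 35.3% of Mo-DCs and 77.9% of monocytes. In Mo-DCs it was at 137, 0 and 801 CPM in hearts 1 to 3 and 41.0, 195 and 285 CPM in hearts 4 to 6. Only heart 3 exceeded the monocyte mean. The 14 cells of heart 3 led by *Cyp11a1*, *Il6* and *Gata2* held 32.9% of the *Osm* CPM of Mo-DCs and the 43 cells led by *G0s2* and *Osgin1* held 30.3%. *Slc7a11*, a cystine transporter, was at 4524 CPM in those 43 cells, with a UMI in 39 of them, and at 314 CPM in the other Mo-DCs.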
